A study of Arabidopsis thaliana with 24 samples.

Results

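The 40 Arabidopsis loci described here are the enzymes and regulators of flavonoid, anthocyanin and lignin biosynthesis. They were chosen by locus identifier for their known roles, with earlier results of these data known, as 40 of the 32833 loci in each count table. The list holds 22 flavonoid and anthocyanin genes and 18 enzymes of the general phenylpropanoid pathway and the lignin branch. RNA was measured by poly(A)-selected, stranded sequencing of whole 4-day-old seedlings of the Col-0 background, grown in liquid medium with sucrose. Seedlings of the agb1 mutant or the wild type (WT) were given 40 µM NAE 18:3 or 0.2% DMSO as the mock treatment, in groups of seedlings, for 3 h or 1 h. This makes 8 groups of 3 replicates, 24 libraries in all. NAE 18:3 is N-linolenoylethanolamine, a lipid amide of the N-acylethanolamine class, and AGB1 is the gene for the G beta protein of the heterotrimeric complex. The labels name no agb1 allele and do not say whether replicates are separate cultures, so p-values measure the spread between these samples.

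The phenylpropanoid pathway starts when phenylalanine ammonia-lyase (PAL) deaminates phenylalanine, and it supplies activated hydroxycinnamates to several branches. Chalcone synthase opens the flavonoid branch, which leads to flavonols, the ultraviolet-absorbing flavonoids of seedlings, and to the red anthocyanins. The other main branch makes monolignols, the alcohols that are polymerised to lignin in xylem walls, and in Arabidopsis it shares steps with the sinapate esters of leaves and cotyledons.

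Libraries held 18.0 to 61.9 M counts (M, mega) at 1 h and 20.0 to 51.9 M counts at 3 h. At 3 h depth differed with genotype, with 36.0 to 51.9 M counts in the agb1 libraries and 20.0 to 25.8 M counts in the WT libraries. Replicate 2 of WT under DMSO at 1 h (18.0 M counts) and the agb1 libraries under DMSO at 3 h stood apart from the others of their groups in a chi-square comparison of counts. Each result was therefore repeated without each library. AGB1 transcript was measured in all 24 libraries. At 3 h it stood at 32.5, 32.0 and 35.4 CPM (counts scaled to library size by TMM, per M counts) in agb1 under NAE 18:3 and at 93.8, 112 and 105 CPM in WT under NAE 18:3. Under DMSO at 3 h it was 25.0, 22.1 and 30.9 CPM in agb1 and 47.3, 47.9 and 48.3 CPM in WT, a log2 fold change of -0.88 (SE 0.12, edgeR adjusted p = 0.000231). At 1 h the agb1 and WT libraries under DMSO overlapped (-0.16, SE 0.09, edgeR adjusted p = 0.245), and under NAE 18:3 AGB1 was lower in agb1 (-0.36, SE 0.09, edgeR adjusted p = 0.0225). Transcript of the targeted gene thus remained in agb1, and at 1 h under DMSO it did not separate the genotypes. Of the lists of tissue markers, the root pair (WOX5 and TIP2;3) summed to 26.9 to 35.4 CPM in agb1 under NAE 18:3 at 3 h, against 2.79 to 4.75 CPM in agb1 under DMSO. In WT at 3 h that sum was 26.5 to 44.7 CPM under NAE 18:3 and 1.63 to 2.74 CPM under DMSO. At 1 h it was 23.3 to 26.9 CPM in agb1 under NAE 18:3, against 11 to 13.1 CPM in agb1 under DMSO, and 9.88 to 12.9 CPM in WT under NAE 18:3, against 4.54 to 6.63 CPM in WT under DMSO. Both root markers rose in all 4 comparisons of NAE 18:3 with DMSO. Between genotypes they parted: TIP2;3 was higher in agb1 than in WT under both treatments at both times. WOX5 was called higher in agb1 only under NAE 18:3 at 1 h. Under NAE 18:3 at 3 h WOX5 stood at -0.535, agb1 against WT, and was not called. The 3 endodermis markers summed to 19.4 to 25.7 CPM in agb1 under NAE 18:3 at 3 h, against 7.48 to 14.3 CPM in agb1 under DMSO, and both that were tested there rose, CASP1 by 1.10 and CASP2 by 0.80 (edgeR adjusted p = 0.0191 and 0.0465). In WT at 3 h they summed to 19.5 to 26.6 CPM under NAE 18:3, against 7.47 to 21.3 CPM under DMSO, with no call. The green tissue markers split at 3 h under NAE 18:3: LHCB2.2 fell by 0.60 in agb1 and fell by 1.94 in WT, CAB1 rose by 0.41 in agb1, and RBCS1A was not called (edgeR adjusted p at most 0.0226 for the 3 calls). The 5 xylem markers summed to 194 to 203 CPM in agb1 under NAE 18:3 at 3 h, against 181 to 191 CPM in agb1 under DMSO. In WT they summed to 91.1 to 233 CPM under NAE 18:3 and 202 to 215 CPM under DMSO. None of the 5 was called in any of the 4 comparisons of NAE 18:3 with DMSO; the smallest edgeR adjusted p among them was 0.102. The part of these tissues in the results on the pathway was not tested. In no group was a xylem, endodermis, green tissue or root marker at 0 in all libraries.

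After 3 h of NAE 18:3 most of the pathway had fallen in both genotypes. At an edgeR adjusted p under 0.05 over all loci, the call used throughout, 30 of the 38 tested genes of the list were called in agb1, 28 lower and 2 higher. Of all loci tested in that comparison, 50.5% were called, 26.0% lower and 24.5% higher. In WT at 3 h, 28 of 38 were called, 25 lower and 3 higher, beside 58.5% of all loci, 29.1% lower and 29.4% higher. At 1 h the called genes were 14 of 40 in agb1 (1 higher and 13 lower, beside 13.8% of all loci, 4.92% lower) and 18 of 40 in WT (3 higher and 15 lower, beside 20.5% of all loci, 8.02% lower). The genes were chosen with earlier results of these data known, so these shares do not test the list against all loci. The 22 flavonoid and anthocyanin genes had a median log2 fold change at 3 h of -1.81 in agb1 and -2.26 in WT over the 20 tested, and none of them rose. The 18 phenylpropanoid and lignin enzymes had medians of -0.73 in agb1 and -0.16 in WT, beside medians over all loci of -0.03 in agb1 and -0.003 in WT. F3H and MYB11 did not pass the filter on low counts at 3 h and were not tested there. In whole seedlings, fewer cells of a type and less RNA per cell cannot be told apart.

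**Figure D1:**
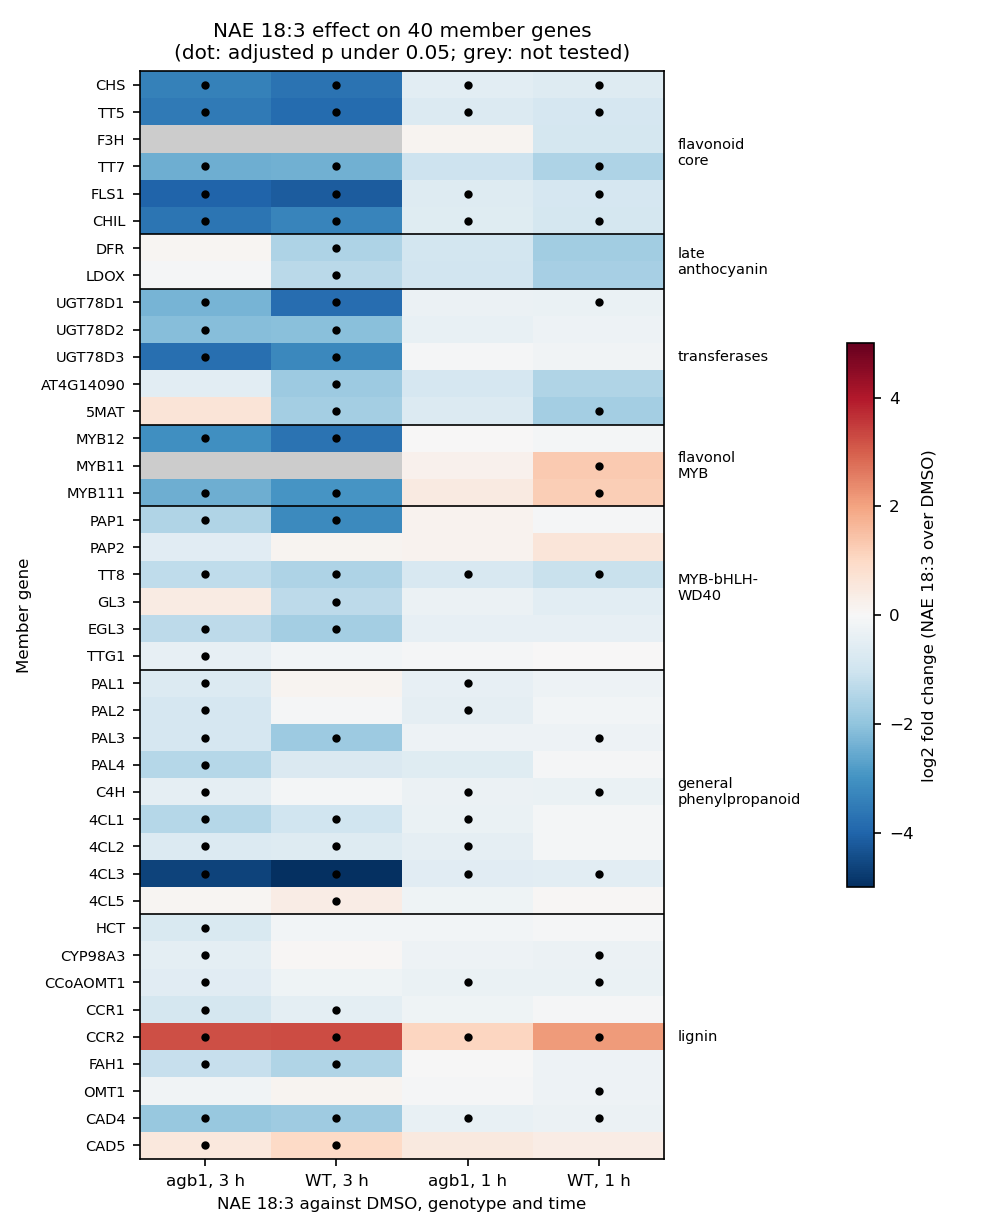
Log2 fold changes of NAE 18:3 over DMSO for the 40 genes (rows, grouped by branch) in agb1 and WT at 3 h and 1 h (columns), with a dot where the edgeR adjusted p was under 0.05 and grey where a gene was not tested. The flavonoid core enzymes and 4CL3 are dark blue at 3 h in both genotypes, and CCR2 is red in all 4 columns.

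The core enzymes that turn activated coumarate into flavonols fell to a small part of their mock level by 3 h, in both genotypes. CHS (AT5G13930), chalcone synthase, had 68.5, 56.3 and 55.7 CPM in agb1 under NAE 18:3, against 575, 657 and 667 CPM in agb1 under DMSO. In WT, CHS had 40.3, 64.9 and 49.8 CPM under NAE 18:3, against 579, 790 and 631 CPM under DMSO. Every NAE 18:3 library lay below every DMSO library of its genotype. The log2 fold change was -3.40 (SE 0.18, edgeR adjusted p = 7.75e-09) in agb1 and -3.69 (SE 0.18, edgeR adjusted p = 2.87e-09) in WT. FLS1 (AT5G08640), flavonol synthase, which makes the flavonols themselves, had 13.2, 10.2 and 10.9 CPM in agb1 under NAE 18:3, against 189, 181 and 187 CPM in agb1 under DMSO. In WT, FLS1 had 9.24, 10.7 and 11.3 CPM under NAE 18:3, against 188, 206 and 167 CPM under DMSO. Its fold changes were -4.02 (SE 0.13, edgeR adjusted p = 6.38e-10) in agb1 and -4.17 (SE 0.13, edgeR adjusted p = 1.81e-10) in WT, again with no overlap between NAE 18:3 and DMSO libraries. TT5 (AT3G55120), chalcone isomerase, had 10.5, 6.84 and 8.42 CPM in agb1 under NAE 18:3, against 90.1, 93.8 and 114 CPM in agb1 under DMSO. In WT, TT5 had 4.76, 7.7 and 5.24 CPM under NAE 18:3, against 81.7, 92.1 and 76.9 CPM under DMSO. CHIL (AT5G05270), a chalcone isomerase-like protein without that activity that aids flux through CHS, had 6.69, 6.1 and 6.54 CPM in agb1 under NAE 18:3, against 80.3, 80.6 and 81.8 CPM in agb1 under DMSO. In WT, CHIL had 7.34, 7.17 and 10.6 CPM under NAE 18:3, against 85.9, 89.7 and 76.8 CPM under DMSO. TT5 fell by 3.54 on the log2 scale in agb1 and fell by 3.84 in WT, and CHIL fell by 3.65 in agb1 and fell by 3.32 in WT (edgeR adjusted p at most 7.23e-09 for the 4 values). TT7 (AT5G07990), the flavonoid hydroxylase that adds a hydroxyl group to the B ring, changed by -2.44 (SE 0.29, edgeR adjusted p = 1.13e-05) in agb1 and -2.42 (SE 0.30, edgeR adjusted p = 1.32e-05) in WT. No alternative ended any of these 10 calls at 3 h.

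At 1 h CHS, FLS1, TT5 and CHIL were already lower in both genotypes, by less. CHS stood at 561, 588 and 439 CPM in agb1 under NAE 18:3, against 779, 820 and 708 CPM in agb1 under DMSO. In WT, CHS had 494, 516 and 482 CPM under NAE 18:3, against 818, 803 and 730 CPM under DMSO. No NAE 18:3 library of CHS reached a DMSO library of its genotype. Its log2 fold change was -0.54 (SE 0.10, edgeR adjusted p = 0.00205) in agb1 and -0.66 (SE 0.10, edgeR adjusted p = 0.000342) in WT. For FLS1 the levels were 169, 153 and 142 CPM in agb1 under NAE 18:3, against 264, 236 and 234 CPM in agb1 under DMSO. In WT, FLS1 had 167, 167 and 147 CPM under NAE 18:3, against 298, 297 and 264 CPM under DMSO. The treatments did not overlap for FLS1 in either genotype. TT5 held 86.8, 93.3 and 67.4 CPM in agb1 under NAE 18:3, against 128, 139 and 126 CPM in agb1 under DMSO. In WT, TT5 had 79.4, 82.3 and 76.8 CPM under NAE 18:3, against 158, 134 and 134 CPM under DMSO. CHIL showed 85.9, 90.2 and 77.5 CPM in agb1 under NAE 18:3, against 140, 123 and 120 CPM in agb1 under DMSO. In WT, CHIL had 88, 83.9 and 78.7 CPM under NAE 18:3, against 164, 148 and 146 CPM under DMSO. For TT5 and CHIL, too, the NAE 18:3 libraries lay below the DMSO libraries of the same genotype. The log2 fold changes were -0.66 in agb1 and -0.83 in WT for FLS1, -0.67 in agb1 and -0.84 in WT for TT5, and -0.59 in agb1 and -0.87 in WT for CHIL (edgeR adjusted p at most 0.000454 for the 6). TT7 fell in WT, with a log2 fold change of -1.53 (SE 0.36, edgeR adjusted p = 0.0169), a call lost without replicate 2 of WT under NAE 18:3 or replicate 1 of WT under DMSO (-1.44 to -1.37, edgeR adjusted p 0.0524 to 0.0738). In agb1 TT7 missed the threshold at -1.04 (SE 0.34, edgeR adjusted p = 0.0863). F3H (AT3G51240), the enzyme that makes dihydroflavonols from naringenin, had 3 to 15 counts per library at 1 h and 0 counts in all 12 libraries at 3 h. A count of 0 over a group of 3 libraries allows up to 3 counts, or 0.0191 to 0.049 CPM in these groups. Of its exon length, 93.8% lies under AT3G51238 on the opposite strand, itself at 0 counts in all 24 libraries, and no direction was drawn for F3H.

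**Figure D2:**
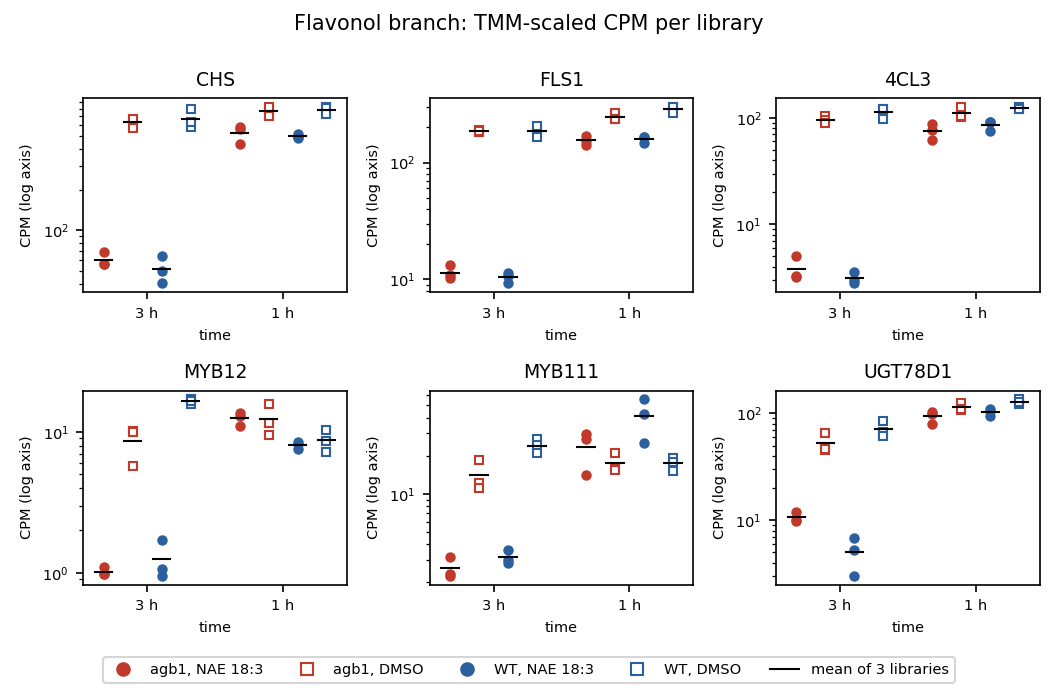
CPM (TMM-scaled, log axis) per library of CHS, FLS1, 4CL3, MYB12, MYB111 and UGT78D1 at 3 h and 1 h, with 3 libraries per group and bars at the group means. At 3 h every NAE 18:3 library of these 6 genes lies below every DMSO library of its genotype.

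Of the MYB transcription factors that switch on the flavonol enzymes, MYB12 (AT2G47460) and MYB111 (AT5G49330) had also fallen by 3 h. At 1 h MYB111 and MYB11 (AT3G62610) were instead higher in WT. MYB12, best known from roots, had 1.1, 0.977 and 0.979 CPM in agb1 under NAE 18:3, against 10.2, 5.77 and 9.98 CPM in agb1 under DMSO. In WT, MYB12 had 0.953, 1.07 and 1.72 CPM under NAE 18:3, against 17, 15.9 and 16.7 CPM under DMSO. MYB111, best known from cotyledons, had 2.25, 2.32 and 3.17 CPM in agb1 under NAE 18:3, against 12.2, 18.6 and 11.1 CPM in agb1 under DMSO. In WT, MYB111 had 3, 3.61 and 2.83 CPM under NAE 18:3, against 26.9, 24.1 and 21.2 CPM under DMSO. For both genes the NAE 18:3 libraries at 3 h were all below the DMSO libraries of the same genotype. The log2 fold change of MYB12 was -3.08 (SE 0.25, edgeR adjusted p = 2.7e-07) in agb1 and -3.71 (SE 0.26, edgeR adjusted p = 5.38e-08) in WT. For MYB111 it was -2.44 (SE 0.21, edgeR adjusted p = 5.21e-07) in agb1 and -2.94 (SE 0.22, edgeR adjusted p = 9.15e-08) in WT. At 1 h MYB12 stood at 13.6, 11 and 13 CPM in agb1 under NAE 18:3, against 15.8, 9.52 and 11.5 CPM in agb1 under DMSO. In WT, MYB12 had 8.45, 8.23 and 7.55 CPM under NAE 18:3, against 7.17, 10.4 and 8.58 CPM under DMSO, with overlap between treatments in both genotypes and no call. MYB111 held 29.8, 14.1 and 27 CPM in agb1 under NAE 18:3, against 21.2, 15.8 and 15.3 CPM in agb1 under DMSO. In WT, MYB111 had 25, 42.5 and 55.7 CPM under NAE 18:3, against 19.2, 17.9 and 15.2 CPM under DMSO at 1 h. The WT libraries under NAE 18:3 were all above those under DMSO, and the agb1 libraries overlapped. MYB111 rose in WT at 1 h by 1.24 (SE 0.33, edgeR adjusted p = 0.029), but the call was lost without either of replicates 2 and 3 of WT under NAE 18:3 or either of replicates 1 and 3 of WT under DMSO (0.96 to 1.32, edgeR adjusted p 0.0681 to 0.0877), and with the replicate number as a block or in a fit of only the libraries compared (adjusted p 0.0547 to 0.0641). MYB11, the third of these factors, had 1.7, 0.964 and 1.38 CPM in agb1 under NAE 18:3, against 1.1, 1.01 and 1.43 CPM in agb1 under DMSO. In WT, MYB11 had 1.16, 1.5 and 2.3 CPM under NAE 18:3, against 0.863, 0.461 and 0.599 CPM under DMSO at 1 h. It rose in WT at 1 h, where the treatments did not overlap (1.31, SE 0.31, edgeR adjusted p = 0.00826), and was not called in agb1 (0.21, SE 0.29, edgeR adjusted p = 0.734). The difference of the NAE effect between genotypes at 1 h was called for 0 of these 3 MYB genes. At 3 h MYB11 had 0 counts in all 3 WT libraries under NAE 18:3 and 12, 20 and 8 counts in those under DMSO. Against 3 counts over the group, it was at least 10.2-fold lower in WT under NAE 18:3. In agb1 at 3 h it had 1, 2 and 2 counts under NAE 18:3 and 5, 8 and 4 counts under DMSO.

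The glycosyltransferases that decorate flavonols fell at 3 h in both genotypes. UGT78D1 (AT1G30530), which adds rhamnose to flavonols, had 12, 10 and 9.84 CPM in agb1 under NAE 18:3, against 45.3, 65.9 and 46.7 CPM in agb1 under DMSO. In WT, UGT78D1 had 6.81, 3.02 and 5.28 CPM under NAE 18:3, against 66.7, 84.8 and 61.1 CPM under DMSO. All NAE 18:3 libraries were below the DMSO libraries, and all 3 agb1 libraries under NAE 18:3 were above the 3 WT libraries under NAE 18:3. The log2 fold change was -2.31 (SE 0.22, edgeR adjusted p = 2.02e-06) in agb1 and -3.80 (SE 0.25, edgeR adjusted p = 4.06e-08) in WT. UGT78D2 (AT5G17050), a flavonoid glucosyltransferase that acts on flavonols and anthocyanins, had 10.8, 10.2 and 10.6 CPM in agb1 under NAE 18:3, against 47, 44.9 and 46.7 CPM in agb1 under DMSO. In WT, UGT78D2 had 12.3, 14.2 and 13.6 CPM under NAE 18:3, against 55.8, 61 and 55.9 CPM under DMSO. It fell by 2.13 in agb1 and fell by 2.11 in WT (edgeR adjusted p at most 1.48e-09), with no overlap between treatments. UGT78D3 (AT5G17030), a flavonol arabinosyltransferase, was scarce, with 8, 0 and 3 counts in agb1 under NAE 18:3, against 40, 135 and 57 in agb1 under DMSO. In WT it had 4, 0 and 3 counts under NAE 18:3, against 26, 35 and 26 under DMSO. Its fold changes were -3.79 (SE 0.70, edgeR adjusted p = 0.000494) in agb1 and -3.23 (SE 0.80, edgeR adjusted p = 0.00319) in WT. At 1 h UGT78D1 held 103, 99 and 79.3 CPM in agb1 under NAE 18:3, against 124, 108 and 109 CPM in agb1 under DMSO. In WT, UGT78D1 had 94.9, 105 and 111 CPM under NAE 18:3, against 135, 122 and 129 CPM under DMSO. UGT78D1 fell by 0.32 in WT at 1 h (SE 0.10, edgeR adjusted p = 0.0339), a call lost without either of replicates 1 and 2 of WT under NAE 18:3 or either of replicates 1 and 3 of WT under DMSO (-0.32 to -0.25, edgeR adjusted p 0.0646 to 0.114), and the agb1 value of -0.28 (SE 0.10, edgeR adjusted p = 0.0787) missed the threshold. UGT78D2 and UGT78D3 were not called at 1 h in either genotype.

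The late anthocyanin genes DFR (AT5G42800), LDOX (AT4G22880), AT4G14090 and 5MAT (AT3G29590) fell at 3 h in WT, while in agb1 none of the 4 was called. DFR, dihydroflavonol reductase, which draws dihydroflavonols away from flavonols towards anthocyanins, had 1.82, 1.69 and 1.16 CPM in agb1 under NAE 18:3, against 1.52, 2.24 and 0.527 CPM in agb1 under DMSO. In WT, DFR had 2.72, 0.711 and 3.01 CPM under NAE 18:3, against 9.13, 6.35 and 3.87 CPM under DMSO. LDOX, which forms the anthocyanidin, had 2.22, 2.85 and 2.32 CPM in agb1 under NAE 18:3, against 1.67, 4.89 and 0.977 CPM in agb1 under DMSO. In WT, LDOX had 2.43, 2.37 and 2.75 CPM under NAE 18:3, against 8.3, 7.26 and 3.56 CPM under DMSO. In WT both genes were lower in every NAE 18:3 library than in any DMSO library, and in agb1 the treatments overlapped. DFR changed by -1.56 (SE 0.52, edgeR adjusted p = 0.0192) in WT and had a value of 0.11 (SE 0.52, edgeR adjusted p = 0.877) in agb1. LDOX changed by -1.34 (SE 0.48, edgeR adjusted p = 0.0296) in WT and stood at -0.04 (SE 0.47, edgeR adjusted p = 0.952) in agb1. The locus AT4G14090, annotated as a UDP-glycosyltransferase, had 1.18, 1.03 and 0.747 CPM in agb1 under NAE 18:3, against 1.17, 2.15 and 0.957 CPM in agb1 under DMSO. In WT, AT4G14090 had 1.57, 0.474 and 1.12 CPM under NAE 18:3, against 4.8, 4.03 and 2.67 CPM under DMSO. 5MAT, which attaches malonate to anthocyanins, had 2.42, 1.58 and 1.57 CPM in agb1 under NAE 18:3, against 0.913, 2.08 and 0.566 CPM in agb1 under DMSO. In WT, 5MAT had 1.43, 1.01 and 1.93 CPM under NAE 18:3, against 6.29, 5.4 and 2.86 CPM under DMSO. Both were lower in all WT libraries under NAE 18:3 than under DMSO, with overlap in agb1. In WT, AT4G14090 fell by 1.83 (SE 0.41, edgeR adjusted p = 0.00175) and 5MAT fell by 1.72 (SE 0.45, edgeR adjusted p = 0.005). The agb1 values were -0.54 (SE 0.40, edgeR adjusted p = 0.275) for AT4G14090 and 0.63 (SE 0.43, edgeR adjusted p = 0.248) for 5MAT. The WT call of DFR was lost without replicate 2 of WT under NAE 18:3 or replicate 1 of WT under DMSO (-1.27 to -1.17, edgeR adjusted p 0.0622 to 0.0722), and that of LDOX without any of replicates 1, 2 and 3 of WT under NAE 18:3 or either of replicates 1 and 2 of WT under DMSO (-1.41 to -1.15, edgeR adjusted p 0.064 to 0.0837). Replicate 2 held the highest of the agb1 values under DMSO for each of the 4 genes, and without it LDOX in agb1 was called higher under NAE 18:3, at 0.91 (edgeR adjusted p = 0.0416). Of the exon length of AT4G14090, 14% lies under AT4G14100 on the opposite strand, which had 94 to 462 counts per library at 3 h, against 8 to 132 for AT4G14090. The difference of the NAE effect between genotypes missed the threshold for DFR, at 1.67 (SE 0.73, edgeR adjusted p = 0.233). It also missed it for LDOX (1.30, SE 0.67, edgeR adjusted p = 0.32), AT4G14090 (1.29, SE 0.57, edgeR adjusted p = 0.239) and 5MAT (2.34, SE 0.63, edgeR adjusted p = 0.0618).

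At 1 h the late genes were spread widely between replicates. DFR stood at 25.1, 44.4 and 13.4 CPM in agb1 under NAE 18:3, against 40.1, 83.4 and 33.6 CPM in agb1 under DMSO. In WT, DFR had 8.48, 4.63 and 8.04 CPM under NAE 18:3, against 23.5, 14 and 32 CPM under DMSO. LDOX held 30.3, 46.4 and 14.2 CPM in agb1 under NAE 18:3, against 48.3, 86.2 and 39.6 CPM in agb1 under DMSO. In WT, LDOX had 16, 8.38 and 11.9 CPM under NAE 18:3, against 39.7, 23.3 and 50.8 CPM under DMSO. For both genes the WT libraries under NAE 18:3 were below those under DMSO. 5MAT showed 7.54, 9.88 and 3.75 CPM in agb1 under NAE 18:3, against 9.74, 16.2 and 8.12 CPM in agb1 under DMSO. In WT, 5MAT had 3.71, 1.59 and 3.99 CPM under NAE 18:3, against 9.44, 7.61 and 13 CPM under DMSO. The same held for 5MAT in WT. In agb1 the treatments overlapped for all 3 genes, with replicate 2 of agb1 under DMSO the highest for each. Of the 4 late genes, 5MAT in WT alone was called, at -1.71 (SE 0.45, edgeR adjusted p = 0.0247), and that call was lost without either of replicates 1 and 2 of WT under NAE 18:3 or either of replicates 1 and 3 of WT under DMSO (-1.85 to -1.40, edgeR adjusted p 0.0508 to 0.0794), and with the replicate number as a block (adjusted p = 0.0564). DFR in WT at -1.74 (SE 0.57, edgeR adjusted p = 0.066), LDOX in WT at -1.67 (SE 0.52, edgeR adjusted p = 0.0548) and AT4G14090 in WT at -1.52 (SE 0.47, edgeR adjusted p = 0.0538) missed the threshold. In agb1 the values were -0.94 for DFR, -0.95 for LDOX, -0.84 for AT4G14090 and -0.70 for 5MAT (edgeR adjusted p at least 0.286).

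**Figure D3:**
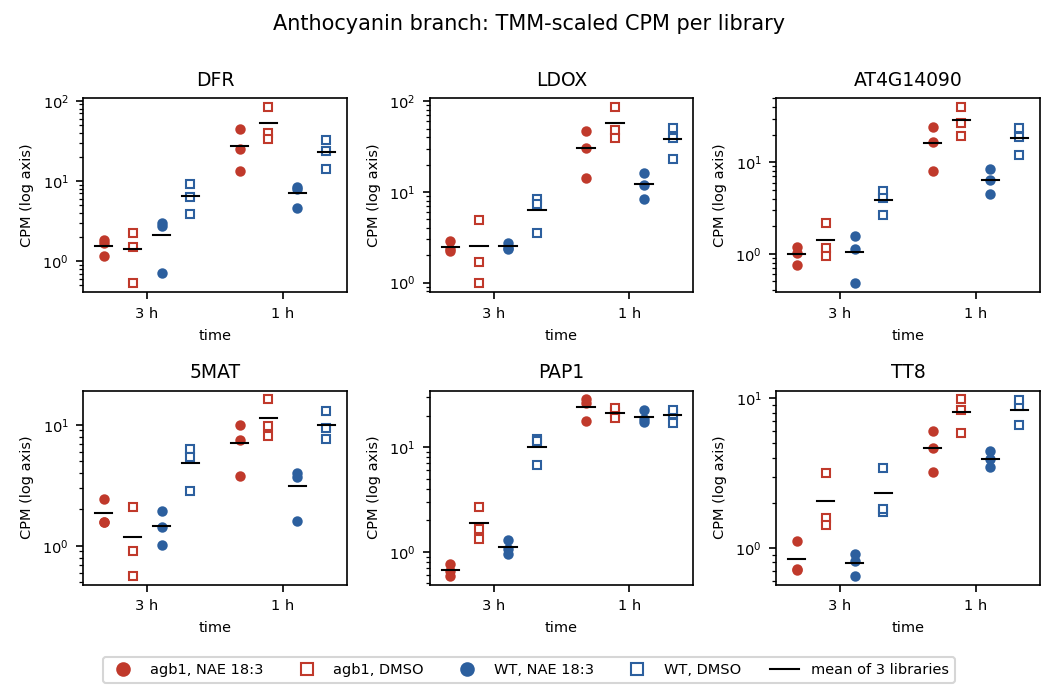
CPM (TMM-scaled, log axis) per library of DFR, LDOX, AT4G14090, 5MAT, PAP1 and TT8 at 3 h and 1 h, with 3 libraries per group and bars at the group means. At 3 h the agb1 libraries under DMSO lie below the WT libraries under DMSO for DFR, AT4G14090, 5MAT and PAP1.

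Anthocyanin genes are switched on by a complex of a MYB, a bHLH and a WD40 protein. PAP1 (AT1G56650), the main MYB of that complex, had 0.663, 0.766 and 0.592 CPM in agb1 under NAE 18:3, against 1.67, 2.69 and 1.33 CPM in agb1 under DMSO. In WT, PAP1 had 1.29, 0.948 and 1.07 CPM under NAE 18:3, against 11.9, 11.4 and 6.73 CPM under DMSO. Its NAE 18:3 libraries were below the DMSO libraries in both genotypes, and its agb1 libraries were below the WT libraries under both treatments. It fell with a log2 fold change of -1.50 (SE 0.31, edgeR adjusted p = 0.00127) in agb1 and -3.17 (SE 0.31, edgeR adjusted p = 1.33e-06) in WT. At 1 h PAP1 stood at 26.2, 28.6 and 18 CPM in agb1 under NAE 18:3, against 21.6, 23.9 and 18.9 CPM in agb1 under DMSO. In WT, PAP1 had 18.6, 17.3 and 22.5 CPM under NAE 18:3, against 20.9, 17 and 22.7 CPM under DMSO, with the treatments overlapping in both genotypes and no call. TT8 (AT4G09820), a bHLH partner, had 0.721, 0.713 and 1.11 CPM in agb1 under NAE 18:3, against 1.59, 3.18 and 1.43 CPM in agb1 under DMSO. In WT, TT8 had 0.905, 0.652 and 0.816 CPM under NAE 18:3, against 3.42, 1.75 and 1.82 CPM under DMSO. It fell at both times in both genotypes. At 3 h TT8 changed by -1.28 (SE 0.37, edgeR adjusted p = 0.0113) in agb1 and -1.55 (SE 0.41, edgeR adjusted p = 0.00503) in WT. At 1 h TT8 held 4.67, 6.06 and 3.2 CPM in agb1 under NAE 18:3, against 5.9, 9.82 and 8.41 CPM in agb1 under DMSO. In WT, TT8 had 4.43, 3.45 and 3.93 CPM under NAE 18:3, against 8.9, 6.58 and 9.68 CPM under DMSO. The log2 fold changes of TT8 at 1 h were -0.80 (SE 0.23, edgeR adjusted p = 0.0358) in agb1 and -1.11 (SE 0.24, edgeR adjusted p = 0.00475) in WT. In agb1 the call of TT8 was lost at 3 h without replicate 2 of agb1 under DMSO (-0.82, edgeR adjusted p = 0.0761), and at 1 h without either of replicates 1 and 3 of agb1 under NAE 18:3, either of replicates 2 and 3 of agb1 under DMSO, replicate 3 of WT under NAE 18:3 or replicate 1 of WT under DMSO (-0.81 to -0.57, edgeR adjusted p 0.0504 to 0.143), and with the replicate number as a block or in a fit of only the libraries compared (adjusted p 0.0656 to 0.0668). EGL3 (AT1G63650), another bHLH, had 2.54, 2.93 and 2.09 CPM in agb1 under NAE 18:3, against 7.11, 8.25 and 3.54 CPM in agb1 under DMSO. In WT, EGL3 had 2.1, 1.13 and 4.81 CPM under NAE 18:3, against 9.61, 9.58 and 7.2 CPM under DMSO. Its fold changes of -1.32 (SE 0.40, edgeR adjusted p = 0.0137) in agb1 and -1.68 (SE 0.41, edgeR adjusted p = 0.00341) in WT were both calls, the agb1 one lost without replicate 3 of agb1 under NAE 18:3 or replicate 2 of agb1 under DMSO (-1.20 to -1.07, edgeR adjusted p 0.0556 to 0.0572). GL3 (AT5G41315), the third bHLH, which also acts in hair cell fate, fell in WT at 3 h (-1.31, SE 0.40, edgeR adjusted p = 0.0122) and stood at 0.42 (SE 0.37, edgeR adjusted p = 0.366) in agb1. TTG1 (AT5G24520), the WD40 member, had 43.8, 40.6 and 37.3 CPM in agb1 under NAE 18:3, against 63.2, 50.5 and 49.1 CPM in agb1 under DMSO. In WT, TTG1 had 49.6, 46.8 and 48.5 CPM under NAE 18:3, against 50.6, 49.6 and 60 CPM under DMSO. It fell slightly in agb1 (-0.42, SE 0.12, edgeR adjusted p = 0.00785), a call lost without replicate 1 of agb1 under DMSO (-0.27, edgeR adjusted p = 0.0706), and stood at -0.14 (SE 0.12, edgeR adjusted p = 0.302) in WT. PAP2 (AT1G66390), a close relative of PAP1, had at most 0.558 CPM in any library at 3 h and was not called in any of the 12 comparisons. GL3, EGL3 and TTG1 were not called for NAE 18:3 at 1 h. By edgeR with all libraries, the difference of the NAE effect between genotypes at 3 h was called for 0 of these 6 regulators.

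The entry enzymes of the general pathway fell in agb1 at 3 h and were mostly not called in WT. By edgeR with all libraries, the difference of the NAE effect between genotypes at 3 h was called for 0 of the 9 general enzymes. PAL1 (AT2G37040), one of the main PAL isoforms, had 356, 376 and 358 CPM in agb1 under NAE 18:3, against 603, 441 and 711 CPM in agb1 under DMSO. In WT, PAL1 had 723, 647 and 513 CPM under NAE 18:3, against 542, 565 and 603 CPM under DMSO. The agb1 libraries under NAE 18:3 were below all others at 3 h, and the WT treatments overlapped. PAL2 (AT3G53260), the other main isoform, had 235, 219 and 221 CPM in agb1 under NAE 18:3, against 364, 346 and 510 CPM in agb1 under DMSO. In WT, PAL2 had 403, 375 and 259 CPM under NAE 18:3, against 350, 370 and 362 CPM under DMSO. PAL1 fell in agb1 with a log2 fold change of -0.69 (SE 0.16, edgeR adjusted p = 0.0029) and stood at 0.14 (SE 0.16, edgeR adjusted p = 0.482) in WT. PAL2 fell in agb1 with a log2 fold change of -0.85 (SE 0.17, edgeR adjusted p = 0.000795) and stood at -0.06 (SE 0.17, edgeR adjusted p = 0.77) in WT. PAL3 (AT5G04230) had 13.6, 11.4 and 12.6 CPM in agb1 under NAE 18:3, against 22.3, 25.4 and 20.1 CPM in agb1 under DMSO. In WT, PAL3 had 8.48, 9.54 and 4.08 CPM under NAE 18:3, against 21.7, 30.3 and 24.1 CPM under DMSO. It fell in agb1 with a log2 fold change of -0.85 (SE 0.22, edgeR adjusted p = 0.0065) and in WT with -1.80 (SE 0.24, edgeR adjusted p = 2.61e-05). PAL4 (AT3G10340) was called in agb1 (-1.43, SE 0.31, edgeR adjusted p = 0.00197) and not in WT (-0.72, SE 0.31, edgeR adjusted p = 0.0633). C4H (AT2G30490), the next enzyme, which hydroxylates cinnamate, had 281, 305 and 277 CPM in agb1 under NAE 18:3, against 336, 333 and 494 CPM in agb1 under DMSO. In WT, C4H had 301, 299 and 264 CPM under NAE 18:3, against 301, 307 and 304 CPM under DMSO. C4H fell in agb1 with a log2 fold change of -0.43 (SE 0.14, edgeR adjusted p = 0.0191), a call lost without either of replicates 1 and 3 of agb1 under NAE 18:3 or replicate 3 of agb1 under DMSO (-0.41 to -0.19, edgeR adjusted p 0.0612 to 0.145), and in a fit of only the libraries compared (adjusted p = 0.0511), and stood at -0.08 (SE 0.14, edgeR adjusted p = 0.647) in WT.

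The ligases that activate coumarate (4CL) split by isoform. 4CL3 (AT1G65060), the isoform tied to flavonoids, had 5.05, 3.22 and 3.27 CPM in agb1 under NAE 18:3, against 103, 94.5 and 89.7 CPM in agb1 under DMSO. In WT, 4CL3 had 3.57, 2.79 and 3.01 CPM under NAE 18:3, against 122, 121 and 97.4 CPM under DMSO. This is the lowest fold change among the 38 tested genes of the list, -4.64 (SE 0.18, edgeR adjusted p = 8.48e-10) in agb1 and -5.18 (SE 0.19, edgeR adjusted p = 3.21e-10) in WT, with every NAE 18:3 library below every DMSO library. 4CL1 (AT1G51680), tied to lignin, had 74.9, 81.7 and 70.7 CPM in agb1 under NAE 18:3, against 257, 139 and 221 CPM in agb1 under DMSO. In WT, 4CL1 had 117, 121 and 77.7 CPM under NAE 18:3, against 208, 190 and 235 CPM under DMSO. It fell by 1.44 in agb1 (SE 0.21, edgeR adjusted p = 7.67e-05) and fell by 1.00 in WT (SE 0.21, edgeR adjusted p = 0.000991), without overlap of the treatments. 4CL2 (AT3G21240) fell by 0.67 in agb1 (SE 0.19, edgeR adjusted p = 0.0113) and fell by 0.66 in WT (SE 0.20, edgeR adjusted p = 0.0105), and the agb1 call was lost without replicate 1 of agb1 under DMSO (-0.48, edgeR adjusted p = 0.0688). 4CL5 (AT3G21230), which can also activate sinapate, had 12.8, 15.3 and 14.3 CPM in agb1 under NAE 18:3, against 13, 10.5 and 15.6 CPM in agb1 under DMSO. In WT, 4CL5 had 22.3, 25.4 and 19.1 CPM under NAE 18:3, against 17.3, 18.5 and 15.6 CPM under DMSO. It rose in WT with a log2 fold change of 0.38 (SE 0.15, edgeR adjusted p = 0.0457) and stood at 0.11 (SE 0.15, edgeR adjusted p = 0.556) in agb1. The WT call was lost in 13 of 19 alternatives: without any of replicates 1, 2 and 3 of agb1 under NAE 18:3, replicate 1 of agb1 under DMSO, either of replicates 1 and 2 of WT under NAE 18:3 or any of replicates 1, 2 and 3 of WT under DMSO (0.28 to 0.39, edgeR adjusted p 0.0532 to 0.177), and with RLE scaling or with no filter on low counts or with DESeq2 or with the replicate number as a block (adjusted p 0.0541 to 0.0659).

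At 1 h 6 of the 9 general enzymes fell in agb1 and 3 of the 9 fell in WT, beside 4.92% of all loci lower in agb1 and 8.02% lower in WT. Their median log2 fold change was -0.41 in agb1 and -0.15 in WT, against medians over all loci of -0.002 in agb1 and -0.016 in WT. The difference of the NAE effect between genotypes at 1 h was called for 0 of these 9 enzymes. PAL4 was not called, at -0.59 (edgeR adjusted p = 0.0659) in agb1 and -0.05 (edgeR adjusted p = 0.888) in WT. PAL1 had 477, 493 and 418 CPM in agb1 under NAE 18:3, against 660, 600 and 584 CPM in agb1 under DMSO. In WT, PAL1 had 605, 645 and 531 CPM under NAE 18:3, against 650, 693 and 759 CPM under DMSO. C4H at 1 h had 374, 408 and 394 CPM in agb1 under NAE 18:3, against 485, 490 and 453 CPM in agb1 under DMSO. In WT, C4H had 452, 464 and 414 CPM under NAE 18:3, against 552, 517 and 620 CPM under DMSO. PAL1 fell in agb1 with a log2 fold change of -0.41 (SE 0.10, edgeR adjusted p = 0.00866), its libraries under NAE 18:3 below those under DMSO, and stood at -0.24 (SE 0.10, edgeR adjusted p = 0.0908) in WT. C4H fell by 0.28 in agb1 (SE 0.08, edgeR adjusted p = 0.0328) and fell by 0.34 in WT (SE 0.08, edgeR adjusted p = 0.00773), and the agb1 call was lost without any of replicates 1, 2 and 3 of agb1 under NAE 18:3 or either of replicates 1 and 2 of agb1 under DMSO (-0.31 to -0.24, edgeR adjusted p 0.0537 to 0.125), and with the replicate number as a block (adjusted p = 0.052). PAL2 had 280, 263 and 251 CPM in agb1 under NAE 18:3, against 405, 354 and 327 CPM in agb1 under DMSO. In WT, PAL2 had 334, 410 and 329 CPM under NAE 18:3, against 374, 407 and 408 CPM under DMSO at 1 h. PAL2 fell in agb1 with a log2 fold change of -0.45 (SE 0.10, edgeR adjusted p = 0.00577) and stood at -0.15 (SE 0.10, edgeR adjusted p = 0.316) in WT. 4CL3 held 87.2, 76.4 and 61.4 CPM in agb1 under NAE 18:3, against 126, 102 and 104 CPM in agb1 under DMSO. In WT, 4CL3 had 74.5, 91.9 and 92.1 CPM under NAE 18:3, against 126, 122 and 120 CPM under DMSO. It fell in agb1 with a log2 fold change of -0.56 (SE 0.12, edgeR adjusted p = 0.00589) and in WT with -0.51 (SE 0.12, edgeR adjusted p = 0.0091), without overlap in either genotype. 4CL1 and 4CL2 were called in agb1 alone, 4CL1 at -0.32 (SE 0.09, edgeR adjusted p = 0.0203) and 4CL2 at -0.47 (SE 0.13, edgeR adjusted p = 0.0286). The WT values were -0.12 for 4CL1 and -0.09 for 4CL2, and the differences between genotypes were not called (edgeR adjusted p = 0.61 and 0.562). The agb1 call of 4CL1 was lost without either of replicates 1 and 3 of agb1 under NAE 18:3 or either of replicates 2 and 3 of agb1 under DMSO (-0.31 to -0.30, edgeR adjusted p 0.0619 to 0.0765), and that of 4CL2 without either of replicates 2 and 3 of agb1 under NAE 18:3 or either of replicates 2 and 3 of agb1 under DMSO (-0.50 to -0.37, edgeR adjusted p 0.0571 to 0.144). PAL3 had 14.6, 13.5 and 16 CPM in agb1 under NAE 18:3, against 16.2, 17.5 and 19 CPM in agb1 under DMSO. In WT, PAL3 had 15.5, 15.6 and 15.9 CPM under NAE 18:3, against 18.3, 18.9 and 18.3 CPM under DMSO. It fell in WT with a log2 fold change of -0.24 (SE 0.08, edgeR adjusted p = 0.0476), a call lost in 12 of 19 alternatives: without replicate 1 of agb1 under NAE 18:3, either of replicates 1 and 2 of agb1 under DMSO, any of replicates 1, 2 and 3 of WT under NAE 18:3 or any of replicates 1, 2 and 3 of WT under DMSO (-0.25 to -0.23, edgeR adjusted p 0.0504 to 0.136), and with no filter on low counts or with the replicate number as a block or in a fit of only the libraries compared (adjusted p 0.0502 to 0.0697).

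In the lignin branch CCR2 (AT1G80820) rose and most other enzymes fell or were not called. Cinnamoyl-CoA reductase (CCR) makes the monolignol aldehydes, and CCR2 is the isoform known for its induction by pathogens, while CCR1 (AT1G15950) serves lignin in development. CCR2 had 53, 49 and 49.5 CPM in agb1 under NAE 18:3, against 4.48, 3.97 and 7.58 CPM in agb1 under DMSO. In WT, CCR2 had 127, 134 and 94.2 CPM under NAE 18:3, against 11.2, 12.3 and 13.4 CPM under DMSO. Every NAE 18:3 library was above every DMSO library of its genotype, and the agb1 libraries were below the WT libraries under both treatments. The log2 fold change was 3.24 (SE 0.21, edgeR adjusted p = 5.78e-08) in agb1 and 3.27 (SE 0.21, edgeR adjusted p = 3.52e-08) in WT. At 1 h CCR2 stood at 23, 22.9 and 31.5 CPM in agb1 under NAE 18:3, against 11.8, 15 and 9.92 CPM in agb1 under DMSO. In WT, CCR2 had 43.1, 58.7 and 46 CPM under NAE 18:3, against 9.49, 10.3 and 13.8 CPM under DMSO. CCR2 had already risen at 1 h, by 1.09 (SE 0.19, edgeR adjusted p = 0.00231) in agb1 and 2.13 (SE 0.20, edgeR adjusted p = 1.31e-05) in WT. CCR1 had 20.7, 20.6 and 19 CPM in agb1 under NAE 18:3, against 36, 38.7 and 34.9 CPM in agb1 under DMSO. In WT, CCR1 had 31.8, 28.2 and 22.5 CPM under NAE 18:3, against 45.8, 35.5 and 34.7 CPM under DMSO. It fell at 3 h with a log2 fold change of -0.86 (SE 0.13, edgeR adjusted p = 0.000127) in agb1 and -0.49 (SE 0.14, edgeR adjusted p = 0.0065) in WT. Of the exon length of CCR1, 54.2% lies under AT1G05213 and 24.2% under AT1G15960 on the opposite strand, and 6.29% of that of CCR2 under AT1G80830. The strand setting of the counting is not given, and without it reads of a gene and of such a neighbour could not be separated. Near-identical paralogs among these families could also share reads.

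Of the enzymes that set the ring pattern of monolignols, HCT, CYP98A3, CCoAOMT1 and FAH1 fell in agb1 at 3 h, and FAH1 fell in WT. By edgeR with all libraries, the difference of the NAE effect between genotypes at 3 h was called for 0 of the 9 lignin enzymes. HCT (AT5G48930), which joins coumarate to shikimate, had 121, 131 and 128 CPM in agb1 under NAE 18:3, against 203, 169 and 277 CPM in agb1 under DMSO. In WT, HCT had 180, 155 and 150 CPM under NAE 18:3, against 165, 168 and 196 CPM under DMSO. It fell in agb1 with a log2 fold change of -0.77 (SE 0.15, edgeR adjusted p = 0.000883), all NAE 18:3 libraries being below the DMSO libraries, and stood at -0.13 (SE 0.15, edgeR adjusted p = 0.499) in WT, where they overlapped. CYP98A3 (AT2G40890), the next hydroxylase, fell in agb1 (-0.47, SE 0.14, edgeR adjusted p = 0.00982) and stood at 0.06 (SE 0.14, edgeR adjusted p = 0.718) in WT. The agb1 call of CYP98A3 was lost without replicate 3 of agb1 under DMSO (-0.32, edgeR adjusted p = 0.0755). CCoAOMT1 (AT4G34050), a methyltransferase for caffeoyl-CoA, had 444, 487 and 457 CPM in agb1 under NAE 18:3, against 625, 567 and 874 CPM in agb1 under DMSO. In WT, CCoAOMT1 had 448, 445 and 408 CPM under NAE 18:3, against 494, 445 and 558 CPM under DMSO. CCoAOMT1 fell in agb1 with a log2 fold change of -0.57 (SE 0.15, edgeR adjusted p = 0.00528) and stood at -0.20 (SE 0.15, edgeR adjusted p = 0.25) in WT. Without replicate 3 of agb1 under DMSO, its highest library, the agb1 value was -0.34 (edgeR adjusted p = 0.0381). FAH1 (AT4G36220), the hydroxylase for sinapate and syringyl lignin, had 67.3, 75.1 and 66.1 CPM in agb1 under NAE 18:3, against 156, 165 and 148 CPM in agb1 under DMSO. In WT, FAH1 had 97.6, 105 and 85.8 CPM under NAE 18:3, against 259, 277 and 286 CPM under DMSO. It fell in both genotypes, with a log2 fold change of -1.17 (SE 0.10, edgeR adjusted p = 6.19e-07) in agb1 and -1.51 (SE 0.10, edgeR adjusted p = 4.38e-08) in WT, and no treated library reached a mock one. OMT1 (AT5G54160), the methyltransferase of the same step, was not called at 3 h, at -0.20 (SE 0.12, edgeR adjusted p = 0.21) in agb1 and 0.12 (SE 0.12, edgeR adjusted p = 0.423) in WT.

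The last monolignol step, cinnamyl alcohol dehydrogenase (CAD), went opposite ways in its main isoforms. CAD4 (AT3G19450) had 38.5, 42.8 and 40.7 CPM in agb1 under NAE 18:3, against 158, 148 and 154 CPM in agb1 under DMSO. In WT, CAD4 had 42.4, 43.5 and 48.2 CPM under NAE 18:3, against 147, 164 and 146 CPM under DMSO. CAD4 fell with a log2 fold change of -1.91 (SE 0.09, edgeR adjusted p = 4.08e-09) in agb1 and -1.77 (SE 0.09, edgeR adjusted p = 4.48e-09) in WT. CAD5 (AT4G34230) had 242, 295 and 280 CPM in agb1 under NAE 18:3, against 175, 182 and 210 CPM in agb1 under DMSO. In WT, CAD5 had 329, 374 and 272 CPM under NAE 18:3, against 192, 134 and 164 CPM under DMSO. CAD5 rose with a log2 fold change of 0.53 (SE 0.15, edgeR adjusted p = 0.00975) in agb1 and 0.99 (SE 0.15, edgeR adjusted p = 7.21e-05) in WT. For both genes the treatments did not overlap at 3 h in either genotype. At 1 h CAD4 had 175, 152 and 151 CPM in agb1 under NAE 18:3, against 225, 178 and 217 CPM in agb1 under DMSO. In WT, CAD4 had 215, 224 and 228 CPM under NAE 18:3, against 286, 262 and 261 CPM under DMSO. CAD4 fell at 1 h with a log2 fold change of -0.38 (SE 0.09, edgeR adjusted p = 0.0116) in agb1, a call lost without either of replicates 2 and 3 of agb1 under NAE 18:3 or either of replicates 1 and 3 of agb1 under DMSO (-0.34 to -0.31, edgeR adjusted p 0.0523 to 0.0669), and with -0.28 (SE 0.09, edgeR adjusted p = 0.0434) in WT, a call lost in 9 of 19 alternatives: without replicate 2 of agb1 under NAE 18:3, replicate 3 of agb1 under DMSO, any of replicates 1, 2 and 3 of WT under NAE 18:3 or any of replicates 1, 2 and 3 of WT under DMSO (-0.31 to -0.23, edgeR adjusted p 0.0502 to 0.146), and with no filter on low counts (adjusted p = 0.0536). CAD5 was not called at 1 h (0.51 in agb1 and 0.36 in WT).

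Of the other lignin enzymes, CCoAOMT1 fell in both genotypes at 1 h, and CYP98A3 and OMT1 fell in WT. HCT at 1 h stood at 187, 208 and 194 CPM in agb1 under NAE 18:3, against 210, 233 and 209 CPM in agb1 under DMSO. In WT, HCT had 204, 203 and 178 CPM under NAE 18:3, against 204, 189 and 222 CPM under DMSO, with no call (-0.15 in agb1 and -0.07 in WT). CCoAOMT1 had 528, 556 and 522 CPM in agb1 under NAE 18:3, against 633, 748 and 664 CPM in agb1 under DMSO. In WT, CCoAOMT1 had 482, 489 and 438 CPM under NAE 18:3, against 627, 576 and 573 CPM under DMSO. It fell with a log2 fold change of -0.35 (SE 0.08, edgeR adjusted p = 0.00861) in agb1 and -0.33 (SE 0.08, edgeR adjusted p = 0.00921) in WT, and the agb1 call was lost without replicate 2 of agb1 under DMSO (-0.27, edgeR adjusted p = 0.0573). CYP98A3 in WT had 105, 102 and 89 CPM under NAE 18:3, against 117, 117 and 130 CPM under DMSO. It fell in WT with a log2 fold change of -0.30 (SE 0.08, edgeR adjusted p = 0.0111), a call lost without replicate 3 of WT under NAE 18:3 (-0.23, edgeR adjusted p = 0.0653). OMT1 had 378, 350 and 323 CPM in WT under NAE 18:3, against 428, 375 and 466 CPM in WT under DMSO, ranges that overlapped. OMT1 fell in WT with a log2 fold change of -0.27 (SE 0.09, edgeR adjusted p = 0.0369), a call lost without replicate 2 of agb1 under NAE 18:3, either of replicates 2 and 3 of WT under NAE 18:3 or either of replicates 1 and 3 of WT under DMSO (-0.27 to -0.20, edgeR adjusted p 0.0507 to 0.151), and in a fit of only the libraries compared (adjusted p = 0.089). FAH1 and CCR1 were not called at 1 h. By edgeR, the difference of the NAE effect between genotypes at 1 h was called for 0 of the 9 lignin enzymes.

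**Figure D4:**
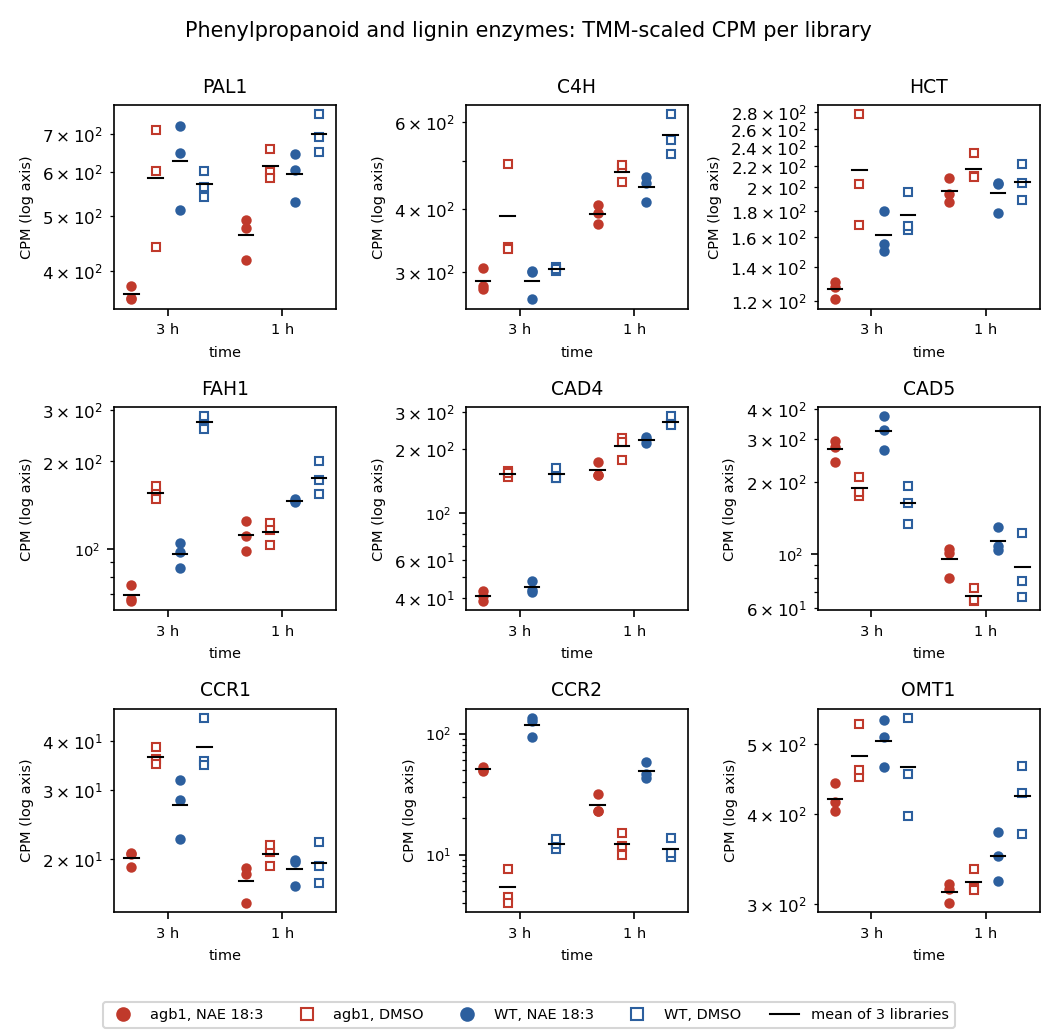
CPM (TMM-scaled, log axis) per library of 9 phenylpropanoid and lignin enzymes at 3 h and 1 h, with 3 libraries per group and bars at the group means. CCR2 and CAD5 are higher and FAH1, CAD4 and CCR1 lower under NAE 18:3 at 3 h in both genotypes, while PAL1, C4H and HCT are lower under NAE 18:3 in agb1 and overlap in WT.

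Whether the NAE effect differed between genotypes was tested as an interaction within each time point. At 3 h 1 of 38 genes was called, beside 2.97% of all loci, and 14 of 38 had an unadjusted p under 0.05, beside 19.2% of all loci. The called gene was UGT78D1, whose fall was smaller in agb1 by 1.49 (SE 0.32, edgeR adjusted p = 0.0279). That call was lost without either of replicates 1 and 2 of agb1 under NAE 18:3, replicate 3 of WT under NAE 18:3 or replicate 2 of WT under DMSO (1.39 to 1.53, edgeR adjusted p 0.0562 to 0.0878). PAP1 (1.68, SE 0.45, edgeR adjusted p = 0.0603), 5MAT (2.34, SE 0.63, edgeR adjusted p = 0.0618), PAL1 (-0.82, SE 0.23, edgeR adjusted p = 0.069) and PAL2 (-0.79, SE 0.24, edgeR adjusted p = 0.0881) missed the threshold. Without replicate 2 of agb1 under DMSO, 8 genes were called, with LDOX (2.28), UGT78D1 (1.72), 5MAT (3.08) and PAP1 (2.07) above 0. Below 0 there were PAL1 (-0.94), PAL2 (-0.85), HCT (-0.75) and CYP98A3 (-0.63), with edgeR adjusted p of 0.00496 to 0.041 for the 8. Without replicate 3 of WT under NAE 18:3 or replicate 3 of WT under DMSO, 3 genes were called. Without replicates 1 or 2 of agb1 under NAE 18:3, or replicate 2 of WT under DMSO, the count was 0. DESeq2 called 6 genes: UGT78D1, 5MAT, PAP1 and GL3 above 0, and PAL1 and PAL2 below 0. The core enzymes gave 0.29 for CHS (SE 0.24), 0.14 for FLS1 (SE 0.17) and -0.33 for CHIL (SE 0.18), none of them called. CCR2 gave -0.03 (SE 0.29). At 1 h edgeR called 0 of 40 genes, beside 0.0753% of all loci, with 4 at an unadjusted p under 0.05, near the 9.11% of all loci at that p. DESeq2 called 1 at 1 h, CCR2 (-1.06, DESeq2 adjusted p = 0.0153), for which edgeR gave -1.04 (SE 0.27, edgeR adjusted p = 0.404).

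**Figure D5:**
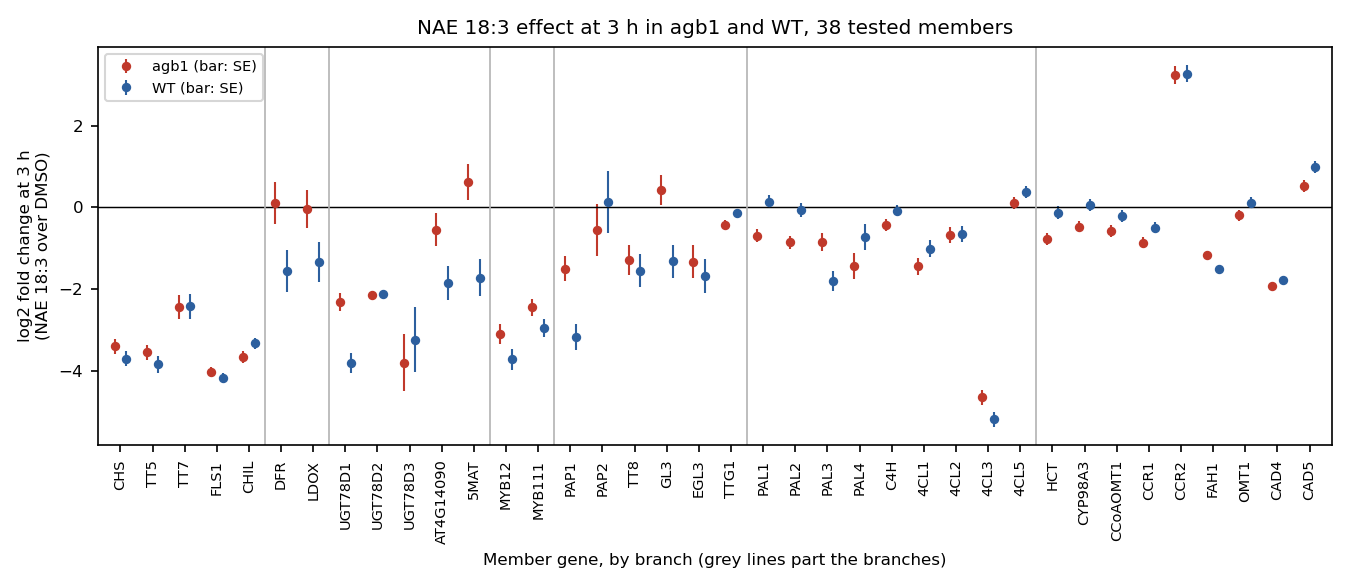
Log2 fold changes of NAE 18:3 over DMSO at 3 h in agb1 and WT for the 38 tested genes, with bars of 1 SE from edgeR. Genotypes lie close together for the core enzymes and CCR2, while DFR, LDOX, AT4G14090, 5MAT, PAP1 and GL3 are lower in WT and PAL1, PAL2 and HCT are lower in agb1.

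Under DMSO at 3 h agb1 seedlings had less transcript of DFR, AT4G14090, 5MAT and PAP1, all of the anthocyanin arm, than WT. Of 38 genes 10 were called, 1 higher and 9 lower, beside 19.0% of all loci (11.1% lower and 7.84% higher). From the per-library values given above, PAP1 (-2.39, SE 0.28, edgeR adjusted p = 8.08e-05), DFR (-2.17, SE 0.51, edgeR adjusted p = 0.0102) and 5MAT (-2.01, SE 0.43, edgeR adjusted p = 0.00576) were lower in every agb1 library than in any WT library. AT4G14090 fell with a log2 fold change of -1.42 (SE 0.38, edgeR adjusted p = 0.0197), a call lost without either of replicates 1 and 3 of agb1 under DMSO or either of replicates 1 and 2 of WT under DMSO (-1.41 to -1.23, edgeR adjusted p 0.0509 to 0.068). LDOX, at -1.33 (SE 0.46, edgeR adjusted p = 0.061), missed the threshold. MYB12 (-0.94, SE 0.21, edgeR adjusted p = 0.00767) and MYB111 (-0.78, SE 0.19, edgeR adjusted p = 0.0117) were lower in agb1 without overlap. UGT78D2 fell by 0.32 (SE 0.09, edgeR adjusted p = 0.0194), a call lost without replicate 2 of WT under DMSO (-0.30, edgeR adjusted p = 0.0692), and in a fit of only the libraries compared (adjusted p = 0.0605). Of the core enzymes, CHS (-0.07), FLS1 (-0.01) and TT5 (0.25) were not called. In the lignin branch CCR2 (-1.20, SE 0.21, edgeR adjusted p = 0.00161) and FAH1 (-0.81, SE 0.10, edgeR adjusted p = 0.000135) fell and CCoAOMT1 rose (0.46, SE 0.15, edgeR adjusted p = 0.0422), the last lost in 12 of 19 alternatives: without any of replicates 1, 2 and 3 of agb1 under NAE 18:3, either of replicates 1 and 3 of agb1 under DMSO, either of replicates 1 and 2 of WT under NAE 18:3 or either of replicates 1 and 2 of WT under DMSO (0.22 to 0.50, edgeR adjusted p 0.0534 to 0.28), and with RLE scaling or with the replicate number as a block or in a fit of only the libraries compared (adjusted p 0.0506 to 0.125). The 3 green tissue markers were also all lower in agb1 under DMSO at 3 h, with a sum of 14600 to 16100 CPM in agb1, against 21000 to 27600 CPM in WT. Their part in these differences was not tested.

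At 1 h under DMSO the same comparison called 4 of 40 genes, all lower in agb1, beside 11.4% of all loci (5.75% lower and 5.63% higher). The 4 calls are near that background of 11.4%. FAH1 had 111, 125 and 98.1 CPM in agb1 under NAE 18:3, against 123, 103 and 116 CPM in agb1 under DMSO. In WT, FAH1 had 146, 148 and 145 CPM under NAE 18:3, against 173, 155 and 200 CPM under DMSO. It fell in agb1 under DMSO with a log2 fold change of -0.63 (SE 0.10, edgeR adjusted p = 0.00228), without overlap. OMT1 had 336, 316 and 314 CPM in agb1 and 428, 375 and 466 CPM in WT under DMSO, also without overlap (-0.39, SE 0.09, edgeR adjusted p = 0.0119). 4CL1 had 83.2, 85.5 and 82.1 CPM in agb1 under NAE 18:3, against 99.8, 107 and 107 CPM in agb1 under DMSO. In WT, 4CL1 had 122, 141 and 112 CPM under NAE 18:3, against 128, 130 and 149 CPM under DMSO at 1 h. 4CL1 (-0.38, SE 0.09, edgeR adjusted p = 0.0144) and CAD4 (-0.38, SE 0.09, edgeR adjusted p = 0.0179) fell too. The call of 4CL1 was lost without replicate 1 of agb1 under DMSO (-0.34, edgeR adjusted p = 0.0701), and that of CAD4 without replicate 2 of agb1 under DMSO or replicate 1 of WT under DMSO (-0.34 to -0.29, edgeR adjusted p 0.0732 to 0.0787). No flavonoid or anthocyanin gene was called: DFR stood at 1.14 (SE 0.52, edgeR adjusted p = 0.187), opposite in sign to 3 h, and PAP1 at 0.08 (SE 0.17, edgeR adjusted p = 0.801). CHS (-0.03) was close to 0. Of the tissue markers, TIP2;3 (1.69, edgeR adjusted p = 0.000352) and the xylem marker IRX3 (0.48, edgeR adjusted p = 0.0423) were higher in agb1 in this comparison, and their part in it was not tested.

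Under NAE 18:3 the entry enzymes PAL1 and PAL2 and the lignin enzymes CCR2, FAH1 and CCR1 were lower in agb1 than in WT at 3 h, and UGT78D1 and PAL3 were higher. In all, 9 of 38 genes were called between genotypes, 2 higher and 7 lower in agb1, beside 22.9% of all loci (13.7% lower). The 9 calls are near that background of 22.9%. UGT78D1 (1.05, SE 0.24, edgeR adjusted p = 0.00795) and PAL3 (0.78, SE 0.24, edgeR adjusted p = 0.0323) were higher. CCR2 (-1.23, SE 0.19, edgeR adjusted p = 0.000748), FAH1 (-0.47, SE 0.10, edgeR adjusted p = 0.00554), PAL1 (-0.79, SE 0.16, edgeR adjusted p = 0.00391), PAL2 (-0.62, SE 0.17, edgeR adjusted p = 0.0177), 4CL5 (-0.66, SE 0.15, edgeR adjusted p = 0.00797), CCR1 (-0.45, SE 0.14, edgeR adjusted p = 0.0306) and UGT78D2 (-0.34, SE 0.09, edgeR adjusted p = 0.0168) were lower. For each of the 9 the agb1 and WT libraries did not overlap. The call of PAL3 was lost without any of replicates 1, 2 and 3 of agb1 under NAE 18:3 or replicate 3 of WT under NAE 18:3 (0.48 to 0.85, edgeR adjusted p 0.055 to 0.0998). That of PAL2 was lost without either of replicates 2 and 3 of agb1 under NAE 18:3 or either of replicates 1 and 2 of WT under NAE 18:3 (-0.61 to -0.49, edgeR adjusted p 0.0583 to 0.0802). CCR1 lost its call without any of replicates 1, 2 and 3 of agb1 under NAE 18:3 or either of replicates 1 and 2 of WT under NAE 18:3 (-0.47 to -0.32, edgeR adjusted p 0.0735 to 0.137). UGT78D2 lost it without replicate 2 of agb1 under NAE 18:3 or replicate 2 of WT under NAE 18:3 (-0.32 to -0.30, edgeR adjusted p 0.0673 to 0.0679), and in a fit of only the libraries compared (adjusted p = 0.0715). The 3 green tissue markers summed to 17800 to 19900 CPM in agb1 under NAE 18:3 at 3 h, against 23900 to 28700 CPM in WT under NAE 18:3, and their part was not tested. At 1 h 8 of 40 were called, 1 higher and 7 lower, beside 8.97% of all loci (4.89% lower). MYB12 was higher in agb1 (0.64, SE 0.17, edgeR adjusted p = 0.0323), and 4CL1 (-0.58, SE 0.09, edgeR adjusted p = 0.000778), CAD4 (-0.48, SE 0.09, edgeR adjusted p = 0.00475) and CCR2 (-0.93, SE 0.19, edgeR adjusted p = 0.00986) were lower. PAL1 (-0.36), PAL2 (-0.43), FAH1 (-0.39) and 4CL2 (-0.46) were lower by smaller amounts (edgeR adjusted p 0.0139 to 0.0462). At 1 h MYB12 lost its call without either of replicates 1 and 3 of agb1 under NAE 18:3 or any of replicates 1, 2 and 3 of WT under NAE 18:3 (0.58 to 0.67, edgeR adjusted p 0.0677 to 0.101), and with the replicate number as a block (adjusted p = 0.0502). PAL1 lost it without either of replicates 1 and 3 of agb1 under NAE 18:3 or either of replicates 1 and 2 of WT under NAE 18:3 (-0.38 to -0.28, edgeR adjusted p 0.0549 to 0.131), and in a fit of only the libraries compared (adjusted p = 0.0562). PAL2 did so without replicate 3 of agb1 under NAE 18:3 or replicate 2 of WT under NAE 18:3 (-0.39 to -0.32, edgeR adjusted p 0.0553 to 0.072), and FAH1 without either of replicates 1 and 3 of agb1 under NAE 18:3 or any of replicates 1, 2 and 3 of WT under NAE 18:3 (-0.40 to -0.30, edgeR adjusted p 0.0634 to 0.118). For 4CL2 the call was lost without any of replicates 1, 2 and 3 of agb1 under NAE 18:3, any of replicates 1, 2 and 3 of agb1 under DMSO, either of replicates 1 and 2 of WT under NAE 18:3 or replicate 2 of WT under DMSO (-0.52 to -0.36, edgeR adjusted p 0.057 to 0.183), and with no filter on low counts or with the replicate number as a block (adjusted p 0.0625 to 0.073).

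For CHS, FLS1, TT5, CHIL and 4CL3 the NAE effect was lower at 3 h than at 1 h in both genotypes. A fit of all 24 libraries compared the effect at 3 h with that at 1 h. In agb1 it called 19 of 40 genes, 1 towards a higher and 18 towards a lower value, beside 34.5% of all loci (17.5% lower). In WT it called 21 of 40, 4 higher and 17 lower, beside 48.0% of all loci (22.8% lower). On the log2 scale the effect moved for 4CL3 by -4.06 in agb1 and -4.63 in WT, for FLS1 by -3.34 in agb1 and -3.30 in WT, and for CHS by -2.84 in agb1 and -3.01 in WT (edgeR adjusted p at most 1.67e-09 for the 6). MYB111, higher at 1 h and lower at 3 h in WT, moved by -2.86 (SE 0.40, edgeR adjusted p = 1.3e-05) in agb1 and -4.15 (SE 0.41, edgeR adjusted p = 1.1e-07) in WT. TT7 moved by -1.39 (SE 0.46, edgeR adjusted p = 0.0253) in agb1 and was not called in WT (-0.87, SE 0.50, edgeR adjusted p = 0.16), and F3H was not called in either genotype. MYB12 moved by -3.09 (SE 0.31, edgeR adjusted p = 1.02e-07) in agb1 and -3.58 (SE 0.32, edgeR adjusted p = 1.26e-08) in WT. CCR2 moved up by 2.17 (SE 0.29, edgeR adjusted p = 8.4e-06) in agb1 and 1.16 (SE 0.29, edgeR adjusted p = 0.00259) in WT. DFR, LDOX, AT4G14090, 5MAT, TT8 and C4H were not called for this change in either genotype.

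Among themselves the 40 genes differed widely in level, compared here per length of exon. In WT under DMSO at 3 h CHS was highest, with a mean of 391 CPM per kb (SD 64.4, n = 3), followed by CCoAOMT1 at 322 CPM per kb (SD 36.6) and OMT1 at 310 CPM per kb (SD 49.2), neighbours whose spreads overlap. PAL1 had 195 CPM per kb, C4H 146 and FLS1 115. The late anthocyanin enzymes were far lower, with 4.55 CPM per kb for LDOX and 4.24 for DFR. Of the regulators TTG1 was highest, at 28.4 CPM per kb, MYB111 had 14.8, MYB12 10.4 and PAP1 9.03. GL3 (0.7 CPM per kb), MYB11 (0.366) and PAP2 (0.262) were near the lower end. The 40 genes together took 0.26% to 0.277% of counts in agb1 under NAE 18:3 at 3 h, against 0.525% to 0.628% in agb1 under DMSO, and 0.27% to 0.321% in WT under NAE 18:3, against 0.49% to 0.52% in WT under DMSO.

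Other genes of the pathway were taken from a list of 55 that are not among the 40. Among them MYB4 and MYB7, and KFB20, were higher under NAE 18:3 at both times in both genotypes. Of 14 other regulators of the flavonoid branch, 12 were tested at 3 h, of which 6 rose and 1 fell in agb1, and 7 rose and 2 fell in WT. Of all loci, 50.5% were called in agb1 (24.5% higher) and 58.5% in WT (29.4% higher), and the 7 calls among 12 in agb1 are near that background. MYB4, a repressor of phenylpropanoid genes, rose by 2.43 (SE 0.11, edgeR adjusted p = 1.76e-09) in agb1 and 2.22 (SE 0.10, edgeR adjusted p = 1.86e-09) in WT at 3 h. At 1 h MYB4 rose by 1.67 (SE 0.14, edgeR adjusted p = 2.5e-06) in agb1 and 1.96 (SE 0.14, edgeR adjusted p = 4.7e-07) in WT. Its relative MYB7 rose at 1 h by 1.42 (SE 0.14, edgeR adjusted p = 1.31e-05) in agb1 and 1.77 (SE 0.14, edgeR adjusted p = 1.95e-06) in WT, and at 3 h by 2.76 (SE 0.14, edgeR adjusted p = 4.08e-09) in agb1 and 2.60 (SE 0.14, edgeR adjusted p = 4.14e-09) in WT. BBX22, a B-box partner of the light regulator HY5, rose at 3 h by 2.59 (SE 0.12, edgeR adjusted p = 2.45e-09) in agb1 and 2.31 (SE 0.12, edgeR adjusted p = 3.11e-09) in WT. Of the 5 F-box genes listed for turnover of PAL or chalcone synthase, 3 were tested, and at 3 h 2 rose and 1 fell in agb1, while 2 rose and none fell in WT, beside 50.5% of all loci called in agb1 and 58.5% in WT. KFB20, which targets PAL for breakdown, rose at 1 h by 2.85 (SE 0.19, edgeR adjusted p = 1.35e-06) in agb1 and 3.16 (SE 0.20, edgeR adjusted p = 4.6e-07) in WT, and at 3 h by 1.85 (SE 0.36, edgeR adjusted p = 0.000962) in agb1 and 2.82 (SE 0.38, edgeR adjusted p = 3.27e-05) in WT. KFB01, of the same group, rose at 3 h in both genotypes, by 1.30 in agb1 and by 2.60 (SE 0.11, edgeR adjusted p = 6.77e-10) in WT. Its NAE effect differed by -1.30 (SE 0.14, edgeR adjusted p = 0.000813), agb1 minus WT. Under DMSO at 3 h KFB01 was already higher in agb1, by 1.21 (SE 0.10, edgeR adjusted p = 5.94e-06). Of 6 tested other flavonoid and anthocyanin enzymes and transporters, none rose at 3 h, while 3 fell in agb1 and 5 in WT. The background over all loci was 50.5% called in agb1, with 26.0% of all loci lower, and 58.5% called in WT, with 29.1% of all loci lower. The 3 calls in agb1 are near the background for calls in either direction, and all 3 were lower.

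Of the 10 tested genes for sinapate esters, coumarins and monolignol glucosides, 1 rose and 5 fell in agb1 at 3 h, and 2 rose and 7 fell in WT, beside 26.0% of all loci lower in agb1 (50.5% called) and 29.1% lower in WT (58.5% called). UGT72E1, which glucosylates monolignol aldehydes, was higher in agb1 than in WT under NAE 18:3 at 3 h, by 1.69 (SE 0.14, edgeR adjusted p = 3.82e-06), and its NAE effect differed by 1.09 (SE 0.19, edgeR adjusted p = 0.0091). SNG1, which makes sinapoylmalate, was lower in agb1 under DMSO at 1 h (-0.85, SE 0.09, edgeR adjusted p = 0.000133) and under NAE 18:3 at 1 h (-0.72, SE 0.09, edgeR adjusted p = 0.000243) and 3 h (-1.29, SE 0.22, edgeR adjusted p = 0.00149). UGT84A3, a hydroxycinnamate glucosyltransferase, was higher in agb1 under DMSO at 3 h (1.37, SE 0.18, edgeR adjusted p = 0.000195) and 1 h (1.54, SE 0.33, edgeR adjusted p = 0.0225), and its NAE effect at 3 h was lower in agb1 (-1.35, SE 0.25, edgeR adjusted p = 0.0136). UGT84A2, which glucosylates sinapate, was lower in agb1 under DMSO at 3 h (-0.91, SE 0.10, edgeR adjusted p = 5.51e-05). Of 14 tested genes for lignin polymerisation and its control, 4 rose and 2 fell in agb1 at 3 h, and 3 rose and 2 fell in WT. These 6 and 5 calls are a smaller share than the 50.5% of all loci called in agb1 and the 58.5% called in WT. CSE, an esterase of the monolignol route, was lower in agb1 at 1 h under DMSO (-0.29, SE 0.07, edgeR adjusted p = 0.0182) and under NAE 18:3 (-0.32, SE 0.07, edgeR adjusted p = 0.0117). ELI3-1 was lower in agb1 under NAE 18:3 at 3 h (-0.59, SE 0.10, edgeR adjusted p = 0.00119), and the locus AT1G23390, a Kelch-repeat protein, under NAE 18:3 at 1 h (-1.71, SE 0.31, edgeR adjusted p = 0.0106). RHM1, which makes the rhamnose donor of flavonol glycosides, had a NAE effect that was lower at 3 h than at 1 h, with a change of -0.98 (SE 0.13, edgeR adjusted p = 5.38e-06) in agb1 and -0.94 (SE 0.13, edgeR adjusted p = 5.05e-06) in WT. Between the times the NAE effect also changed for KFB01 and UGT72E1 in WT, by 2.05 (SE 0.20, edgeR adjusted p = 3.54e-08) for KFB01 and -2.12 (SE 0.17, edgeR adjusted p = 1.85e-09) for UGT72E1. In agb1 it changed for BBX22 by 1.54 (SE 0.18, edgeR adjusted p = 1.32e-06) and for UGT84A1, another hydroxycinnamate glucosyltransferase, by -2.35 (SE 0.34, edgeR adjusted p = 1.18e-05).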

How the data were processed

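Poly(A) RNA of 24 libraries was sequenced as 75-base read pairs from a stranded kit, per the labels' protocols. The submitters' processing notes name STAR and the TAIR10 build for the alignment; the counting tool and its strand setting are not given in the sources used here. The deposited tables hold raw counts per locus, one table per time point, and the authors' scaled tables were not used. Counts were tested with edgeR 4.0.16 (limma 3.58.1, R 4.3.3): filterByExpr (minimum count 10, minimum total 15), TMM scaling, robust quasi-likelihood F tests, and Benjamini-Hochberg adjustment over all tested loci (21255 at 1 h, 20672 at 3 h, 21700 in the fit of all libraries), with a call at 0.05. SE is the fold change over the square root of F. CPM values are TMM-scaled within each time point, and levels are not compared between time points. Alternatives were RLE scaling, no filter, a mean of at least 1 CPM, DESeq2 1.42.0, a replicate block, a fit of only the libraries compared, a length-trend offset and leaving out each library. Scripts were tested on simulated counts. All 40 loci matched the RefSeq annotation, used for exon length and opposite-strand overlap. Library values are given per branch and comparison for the up to 3 called genes with the smallest p, and for CHS, FLS1, DFR, LDOX, PAP1, PAL1, C4H, HCT, CCoAOMT1 and CCR2; of other pathway genes, the up to 3 called per comparison with a mean of at least 5 CPM are named. The members and lists were chosen with earlier results of these data known.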

Additional observations from a re-analysis of the deposited data

Results flagged for a closer look

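The NAE effect differed between agb1 and WT at 3 h for 1 of the 38 tested genes by the interaction test, near the 2.97% of all loci called. UGT78D1 had a difference of 1.49 (SE 0.32, edgeR adjusted p = 0.0279), agb1 minus WT, lost without either of replicates 1 and 2 of agb1 under NAE 18:3, replicate 3 of WT under NAE 18:3 or replicate 2 of WT under DMSO (1.39 to 1.53, edgeR adjusted p 0.0562 to 0.0878).

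Between the time points the effect of NAE 18:3 changed for 19 of 40 genes in agb1 and 21 of 40 in WT, by the fit of all 24 libraries, beside 34.5% of all loci in agb1 and 48.0% in WT, so the WT share is near its background. The values that follow are log2 changes of the effect, 3 h minus 1 h, each past the edgeR adjusted threshold. Among core enzymes and 4CL3 they were -2.84 in agb1 and -3.01 in WT for CHS, -2.85 in agb1 and -2.97 in WT for TT5, -1.39 in agb1 for TT7, -3.34 in agb1 and -3.30 in WT for FLS1, -3.04 in agb1 and -2.42 in WT for CHIL, and -4.06 in agb1 and -4.63 in WT for 4CL3. For the flavonol glycosyltransferases the values were -2.02 in agb1 and -3.45 in WT for UGT78D1, -1.74 in agb1 and -1.83 in WT for UGT78D2, and -3.74 in agb1 and -3.01 in WT for UGT78D3. Regulators had -3.09 in agb1 and -3.58 in WT for MYB12, -2.86 in agb1 and -4.15 in WT for MYB111, -1.66 in agb1 and -3.08 in WT for PAP1, -1.24 in WT for EGL3, and -0.35 in agb1 for TTG1. MYB11 in WT had a fitted value of -8.56, which rests on 0 counts in the 3 WT libraries under NAE 18:3 at 3 h, depends on the prior count and is no bound. Phenylpropanoid and lignin enzymes had -1.53 in WT for PAL3, -1.10 in agb1 and -0.86 in WT for 4CL1, -0.61 in agb1 for HCT, 0.39 in WT for CYP98A3, and -0.61 in agb1 for CCR1. The remaining lignin enzymes had 2.17 in agb1 and 1.16 in WT for CCR2, -1.11 in agb1 and -1.21 in WT for FAH1, 0.42 in WT for OMT1, -1.52 in agb1 and -1.46 in WT for CAD4, and 0.66 in WT for CAD5.

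Of these 40 values, 6 lost their call in at least 1 alternative. In agb1, TT7 lost its call without replicate 2 of agb1 under NAE 18:3 at 3 h, replicate 2 of agb1 under DMSO at 3 h, replicate 2 of agb1 under NAE 18:3 at 1 h or either of replicates 1 and 3 of agb1 under DMSO at 1 h (-1.28 to -1.04, edgeR adjusted p 0.0573 to 0.086). TTG1 in agb1 lost it without either of replicates 2 and 3 of agb1 under NAE 18:3 at 3 h, replicate 1 of agb1 under DMSO at 3 h, any of replicates 1, 2 and 3 of WT under NAE 18:3 at 3 h, replicate 1 of WT under DMSO at 3 h, any of replicates 1, 2 and 3 of agb1 under NAE 18:3 at 1 h, either of replicates 1 and 2 of agb1 under DMSO at 1 h, replicate 1 of WT under NAE 18:3 at 1 h or either of replicates 1 and 2 of WT under DMSO at 1 h (-0.37 to -0.24, edgeR adjusted p 0.0513 to 0.165), and with no filter on low counts or with the replicate number as a block or with a length-trend offset (adjusted p 0.0517 to 0.0819). In WT, EGL3 lost its call without either of replicates 1 and 2 of WT under NAE 18:3 at 3 h, replicate 2 of WT under DMSO at 3 h, either of replicates 1 and 3 of WT under NAE 18:3 at 1 h or either of replicates 1 and 3 of WT under DMSO at 1 h (-1.24 to -0.94, edgeR adjusted p 0.0518 to 0.0668), and with a length-trend offset (adjusted p = 0.0662), and without replicate 3 of WT under NAE 18:3 at 3 h its value was -2.03 (edgeR adjusted p = 0.000277). OMT1 in WT lost it without either of replicates 1 and 2 of WT under NAE 18:3 at 3 h, either of replicates 2 and 3 of WT under DMSO at 3 h, replicate 3 of WT under NAE 18:3 at 1 h or replicate 3 of WT under DMSO at 1 h (0.32 to 0.40, edgeR adjusted p 0.0517 to 0.0842). CAD5 in WT lost it without either of replicates 1 and 2 of WT under NAE 18:3 at 3 h, either of replicates 2 and 3 of WT under DMSO at 3 h, either of replicates 2 and 3 of WT under NAE 18:3 at 1 h or replicate 3 of WT under DMSO at 1 h (0.36 to 0.66, edgeR adjusted p 0.0536 to 0.174). CYP98A3 in WT lost it in 23 of 30 alternatives: without any of replicates 1, 2 and 3 of agb1 under NAE 18:3 at 3 h, replicate 1 of agb1 under DMSO at 3 h, any of replicates 1, 2 and 3 of WT under NAE 18:3 at 3 h, either of replicates 1 and 2 of WT under DMSO at 3 h, any of replicates 1, 2 and 3 of agb1 under NAE 18:3 at 1 h, any of replicates 1, 2 and 3 of agb1 under DMSO at 1 h, either of replicates 2 and 3 of WT under NAE 18:3 at 1 h or any of replicates 1, 2 and 3 of WT under DMSO at 1 h (0.25 to 0.42, edgeR adjusted p 0.0504 to 0.227), and with RLE scaling or with no filter on low counts or with the replicate number as a block (adjusted p 0.0528 to 0.0618). HCT in agb1 kept its call, at -0.39 (edgeR adjusted p = 0.0364), without replicate 3 of agb1 under DMSO at 3 h.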

How the results depend on the processing

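Counts of called genes at 3 h moved by no more than 1.5 times under every alternative for NAE 18:3 against DMSO in agb1 (28 to 30) and in WT (27 to 30), and for agb1 against WT under NAE 18:3 (6 to 12) and DMSO (7 to 13). The changes of the NAE effect between times also stayed within 1.5 times. At 1 h, leaving out 1 library gave 9 to 17 called genes for NAE 18:3 in agb1 (14 with all libraries), 11 to 21 in WT (18), 3 to 10 for agb1 against WT under NAE 18:3 (8) and 3 to 6 under DMSO (4), for which DESeq2 called 8. The difference of the NAE effect at 3 h, with 1 called gene, had 0 to 8 called when 1 library was left out, 6 with DESeq2 and 2 with the replicate number as a block. At 1 h that difference had 0 called genes by edgeR, 0 without any 1 library and 1 by DESeq2. LDOX in agb1 at 3 h reversed without replicate 2 of agb1 under DMSO, with a log2 fold change of 0.91 in place of -0.04, the other extreme without 1 library being -0.39. Deviations of same-numbered replicates had a median correlation of 0.024 at 1 h and -0.042 at 3 h, with 3 of 18 pairs above 0.1 at each time. Pairs with other numbers had medians of 0.024 at 1 h and 0.013 at 3 h, with 1 of 36 and 3 of 36 above 0.1. The highest correlation was of a same-numbered pair at both times (0.152 at 1 h and 0.236 at 3 h). No pairing by replicate number is stated, so the block changes calls without one. Of 9703 values under the alternatives, 9313 kept their side of the threshold, 239 lost the call and 150 gained it. A further 1 changed sign with a call in the main or the alternative fit. Changes of sign in values called in neither fit are among the 9313 and were not counted apart. Of 162 calls, 118 held under every alternative. The causes of these changes were not tested. The length-trend offset was chosen after seeing the data. Counts limit F3H, MYB11 and PAP2 at 3 h.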
